A study of Caenorhabditis elegans with 23 samples.

Results

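RNAi against panl-2 was compared with a non-targeting RNAi in gld-2 mutants of Caenorhabditis elegans, and the comparison rests on 4 of the 23 libraries of a series that sequenced mRNA 3′ ends together with their poly(A) tails (PAT-seq). By their titles and strain labels all 4 libraries came from whole young adult worms of the strain gld-2(q497), which ate E. coli HT115(DE3) making double-stranded RNA, and all belonged to sequencing run 2. The 2 libraries labelled panl-2 RNAi were set against the 2 labelled pcb19, a construct that the labels call non-targeting and that is named control RNAi here. The libraries labelled ccf-1 RNAi and ccr-4 RNAi (2 each, same strain, stage and run) served for direct comparison, and these groups shared each fit with parn-1 and caf-1 RNAi, 12 libraries in all. The treatment text common to the series names N2, the wild-type strain, for RNAi feeding, which conflicts with the strain label of these libraries; the strain label was followed. By that label every library carried the gld-2 mutation, and no panl-2 RNAi library is labelled N2. Whole worms were used, so that fewer cells of a type and less RNA per cell cannot be told apart. Nothing in the labels says that the 2 libraries of a group came from separate cultures, and p-values then measure only the spread between these libraries.

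PANL-2 is the worm form of PAN2, the catalytic subunit of the PAN2-PAN3 deadenylase, which trims the far end of long poly(A) tails while poly(A)-binding protein is still bound. The CCR4-NOT complex, with the nucleases CCF-1 and CCR-4, shortens tails further and opens the way to decapping and decay. GLD-2 works in the opposite direction: it is the cytoplasmic poly(A) polymerase that lengthens the tails of many germline and maternal mRNAs, and its loss leaves those tails short. Each PAT-seq read starts at a 3′ end, so the files gave 3 values per gene and library: a read count, the number of reads that showed a tail, and the mean tail length of those reads in nucleotides (nt).

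The control libraries held 8605988 and 2200091 counts and the panl-2 RNAi libraries 12533786 and 5484558. Markers of intestine (vit-2, vit-6), body muscle (unc-54), cuticle (col-19), germline (glh-1) and oocytes (oma-1, cbd-1) were present in all 4. A further cuticle marker, rol-6, had 1 and 0 counts in control RNAi and 9 and 1 in panl-2 RNAi. The embryonic genes pes-10 and tbx-37 had 0 counts and end-1 had 0 to 3. The library labelled panl-2 RNAi replicate 1 stood apart from the other 3 in its tailed share and its myo-2 level. Of its counts outside ribosomal RNA, 84.2% carried a tail, against 51.6% in panl-2 RNAi replicate 2 and 55.3% and 48.7% in the control libraries (binomial 95% Wilson half-widths of at most 0.070 points, counting error only). It also held 611 counts of myo-2, the pharynx muscle myosin, or 48.7 CPM (counts scaled to library size; here to the plain total, elsewhere to the TMM-scaled total), against 8.64 to 12.4 CPM in the other 3 libraries. Ribosomal RNA took 6.01% of its counts, 21.3% in panl-2 RNAi replicate 2, and 18.8% and 11.4% in control RNAi. Among the other libraries of the fits, caf-1 RNAi replicate 2 was nearest, with 71.3% tailed and 3.99% ribosomal RNA. In ccf-1 RNAi ribosomal RNA took 6.63% and 7.37%. Results that lean on panl-2 RNAi replicate 1 are therefore given with and without it below, and the part of library quality in them was not tested. Values without replicate 1 rest on panl-2 RNAi replicate 2, which had extremes of its own. Its ribosomal RNA share was the highest of the 12 RNAi libraries. So were its summed levels of ribosomal protein genes (462794 CPM) and yolk protein genes (53993 CPM).

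More reads, not fewer, fell on the target gene where the label says panl-2 RNAi. This gene lies on chromosome III from 6963857 to 6968021 on the minus strand (genome build ce10), and its level was 17.1 and 15.0 CPM in control RNAi against 143 and 1443 CPM in panl-2 RNAi. Both panl-2 RNAi libraries thus lay above the controls, by 8.92-fold and 90.0-fold of the control mean, and above the other 10 RNAi libraries of the run, which held 15.0 to 67.9 CPM. The change was 5.61 ± 0.96 (SE) on the log2 scale with an adjusted p of 0.14 in edgeR's quasi-likelihood test, which did not pass. Leaving out replicate 1 or 2 of panl-2 RNAi gave an edgeR adjusted p of 1.0e-04 or 0.021, but 1 library then stands for the group and is assumed to vary like the other groups, here and wherever a panl-2 RNAi library is left out. The tails on these reads were short: 32.8 and 35.2 nt in control RNAi, 23.2 and 11.9 nt in panl-2 RNAi. That difference was -16.47 ± 4.75 nt (limma adjusted p = 0.28), with no overlap between the groups. Outside these groups, ccf-1 RNAi replicate 2 also had short panl-2 tails, of 23.0 nt, at 67.9 CPM.

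A convergent neighbour followed the same pattern and is named here after its values were seen. F57B9.1 ends 708 bases from panl-2 on the opposite strand (III: 6962322 to 6963149, plus strand, ce10), and it held 72.8 and 57 CPM in control RNAi against 290 and 1714 CPM in panl-2 RNAi. The other 10 RNAi libraries lay between 57 and 92.9 CPM, so that both panl-2 RNAi libraries lay above all of them. Its tails measured 42.9 and 41.9 nt in control RNAi, 32.5 and 19.2 nt in panl-2 RNAi, and 28.2 nt in ccf-1 RNAi replicate 2. In edgeR the change in level was 3.94 ± 0.64 (log2, adjusted p = 0.14), and with replicate 2 as the lone panl-2 RNAi library it was 4.58 (edgeR adjusted p = 5.2e-06). F57B9.1 and panl-2 were the 2 genes called in that fit.

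Further genes around panl-2 are given for comparison. The proteasome subunit gene rpn-6.1, which follows on the same strand, held 182 and 168 CPM in control RNAi and 167 and 171 CPM in panl-2 RNAi. For let-711, the CCR4-NOT scaffold gene 5721 bases away, the levels were 108 and 117 against 100 and 115 CPM. Replication factor gene rfc-4, on the far side of panl-2, stood at 69.7 and 49.5 against 167 and 160 CPM, and both panl-2 RNAi libraries lay above the other 10 RNAi libraries (49.5 to 106 CPM), as they did for panl-2 and F57B9.1. The change was 1.45 ± 0.32 on the log2 scale (edgeR adjusted p = 0.14). The counts cannot say whether such reads are worm mRNA or come from the fed RNA. These values measure reads at the locus and say nothing of how far panl-2 was silenced. What they mean for the label was not tested. More reads also fell on the target in some other groups used here. Under the ccr-4 RNAi label ccr-4 had 902 and 1057 CPM (3.28 to 26.2 CPM in the other 10). Under the parn-1 RNAi label parn-1 had 88.3 and 43.8 CPM (8.66 to 20.7 CPM). On the opposite strand, 177 bases from parn-1, frpr-15 was also higher there, at 15.8 and 10.9 CPM (0 to 2.63 CPM). The opposite-strand neighbour of ccr-4, sec-24.2, was not higher under the ccr-4 RNAi label, at 100 and 88.0 CPM (71.2 to 129 CPM). Under the ccf-1 RNAi label ccf-1 had 73.8 and 66.8 CPM, below the other 10 (74.8 to 159 CPM). On the same strand, 4875 bases from ccf-1, Y56A3A.16 was higher there, at 144 and 160 CPM (84.1 to 140 CPM). So was an opposite-strand row that merges several genes and spans ccf-1, at 14493 and 9677 CPM (5161 to 8642 CPM). The remaining neighbours of ccf-1 were not above the other 10 in both libraries. Names of RNAi groups therefore stand for the labels in what follows.

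**Figure D1:**
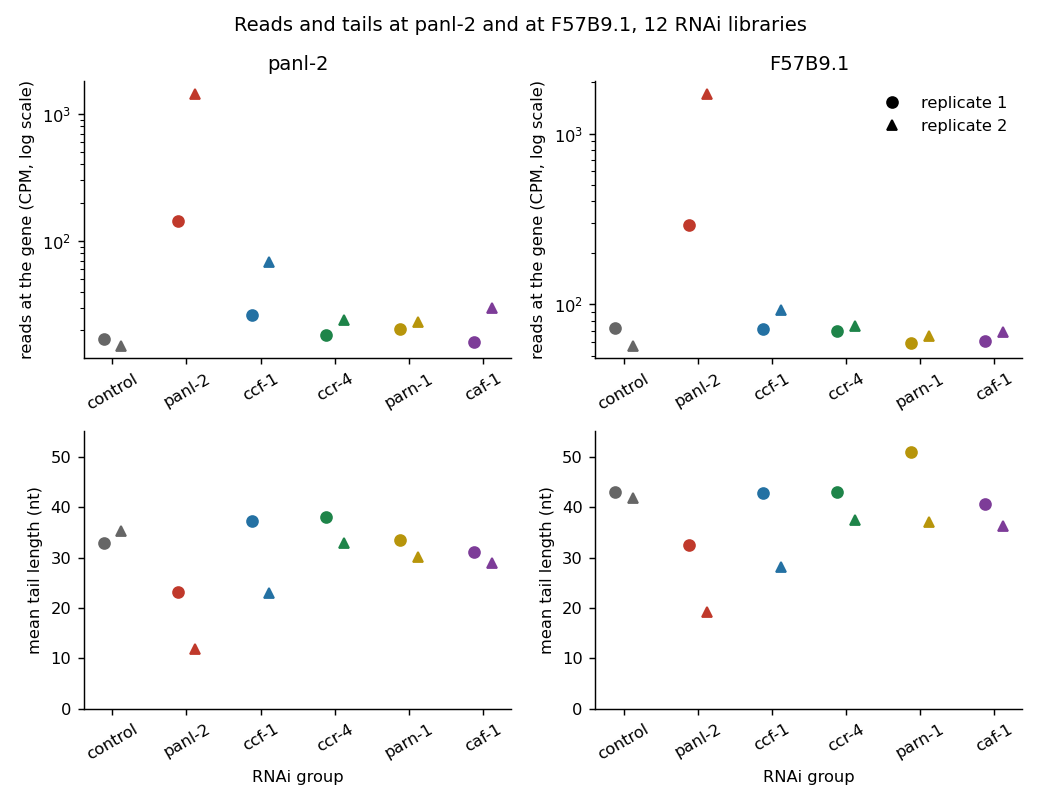
Reads (top, CPM on a log scale) and mean tail length (bottom, nt) at panl-2 and at its convergent neighbour F57B9.1 in the 12 RNAi libraries of run 2. Each point is 1 library, circles for replicate 1 and triangles for replicate 2. For both genes the 2 panl-2 RNAi libraries have the most reads, and replicate 2, with 1443 and 1714 CPM, has the shortest tails, at 11.9 and 19.2 nt.

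Among the genes of the deadenylase machinery, none of 13 tested rows passed the test for level or for tail length against control RNAi; over all genes 0% of 9908 passed for level and 0% of 6525 for tail length. The partner subunit gene panl-3 (PAN3) stood at 46.2 and 34.6 CPM in control RNAi and 48.4 and 45.2 CPM in panl-2 RNAi, with the panl-2 RNAi replicate 2 value inside the control range. Counts of ccf-1, the CAF1 nuclease of CCR4-NOT, ran at 94.0 and 74.8 CPM in control RNAi against 159 and 135 CPM in panl-2 RNAi. Both panl-2 RNAi libraries exceeded both controls there, by 0.80 ± 0.22 on the log2 scale (edgeR adjusted p = 0.17).

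The widest gap among CCR4-NOT subunits was in ntl-9, the worm CNOT9. It had 139 and 99.5 CPM in control RNAi against 265 and 267 CPM in panl-2 RNAi, a log2 change of 1.16 ± 0.31 (edgeR adjusted p = 0.16). For ntl-4, the ubiquitin ligase subunit gene, the order was reversed, with 48.5 and 50.9 against 38.9 and 24.4 CPM (-0.64 ± 0.28, edgeR adjusted p = 0.29). The nuclease gene ccr-4 overlapped fully between the groups, at 5.37 and 26.2 against 5.90 and 23.5 CPM. Transcripts of parn-1, a separate poly(A)-specific ribonuclease, were at 12.9 and 13.1 against 9.96 and 8.66 CPM. The gene gld-2 itself was barely read, with 28 and 14 counts in control RNAi and 35 and 9 counts in panl-2 RNAi. On tail length, ccf-1 transcripts had 46.0 and 40.9 nt in control RNAi and 52.6 and 50.4 nt in panl-2 RNAi, and panl-3 transcripts 39.4 and 41.8 nt against 46.2 and 45.2 nt (limma adjusted p = 0.49 and 0.63). Tails of ntl-4 were on the other side, at 35.2 and 33.0 nt against 30.2 and 29.6 nt (limma adjusted p = 0.66). The label caf-1 matched no row of its own, and no value is given for it.

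Tail length as a whole was close in the 2 groups. Over 6785 genes with at least 5 tailed reads in each of the 12 RNAi libraries, the median gene had a tail of 33.84 and 32.09 nt in control RNAi and 35.61 and 33.52 nt in panl-2 RNAi. The panl-2 RNAi libraries averaged 1.60 nt more, but control RNAi replicate 1 lay above panl-2 RNAi replicate 2 (exact two-sided permutation p = 0.667, and 2 against 2 cannot go below 0.333). Without panl-2 RNAi replicate 1 the difference was 0.56 nt. On the same genes the ccf-1 RNAi libraries measured 38.12 and 38.79 nt and the ccr-4 RNAi libraries 36.71 and 34.32 nt. The share of tailed reads differed by 15.93 points (exact two-sided permutation p = 0.667) and by -0.35 points without panl-2 RNAi replicate 1.

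**Figure D2:**
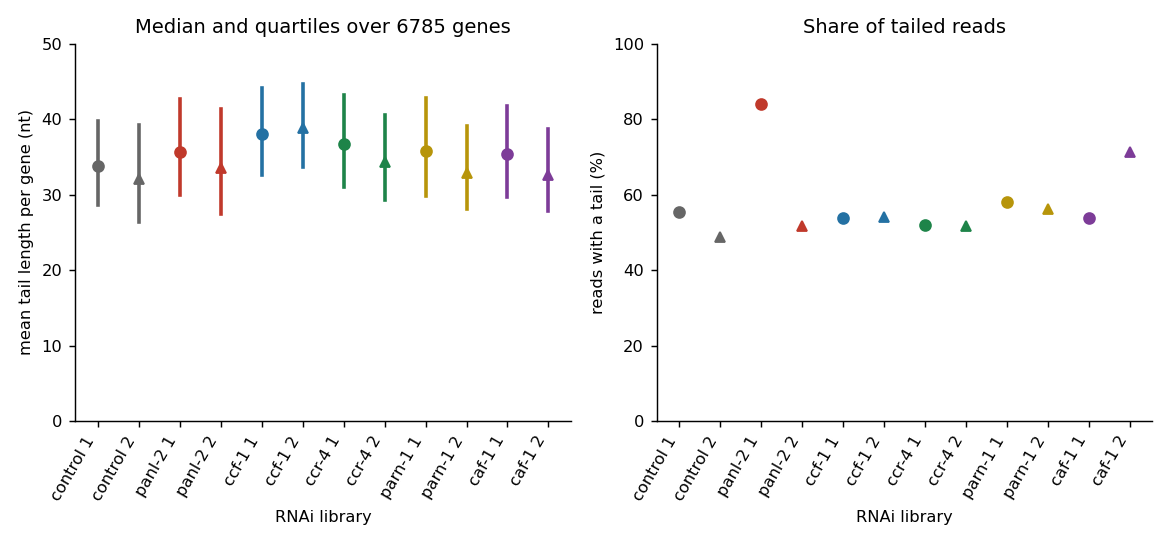
Left, median (symbol) and quartiles (bar) of mean tail length per gene in nt over 6785 genes, for each of the 12 RNAi libraries; right, share of reads with a tail in percent, ribosomal RNA left out. The panl-2 RNAi medians, 35.61 and 33.52 nt, interleave with the control medians of 33.84 and 32.09 nt, and panl-2 RNAi replicate 1 has the highest tailed share, 84.2%.

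Gene by gene, limma called 0 of 6525 tails at an adjusted p of 0.05, and the smallest adjusted p was 0.059. At an unadjusted p of 0.05 there were 700 genes (10.7%), 602 with longer and 98 with shorter tails in panl-2 RNAi, and the median change over all genes tested was 1.28 nt. Leaving out control RNAi replicate 1 gave 11 calls, 7 longer and 4 shorter, and leaving out any other of the 4 libraries gave 0. The gene at that smallest adjusted p, rnp-1, encodes an RNA-binding protein (V: 12192256 to 12194145, plus strand, ce10). Its tails measured 29.4 and 25.6 nt in control RNAi and 54.2 and 54.8 nt in panl-2 RNAi, from at least 66 tailed reads in each library. With a change of 27.02 ± 3.39 nt and no overlap it was singled out after its values were seen, and the change was 27.31 nt without replicate 1. In ccf-1 RNAi the same tails had 28.5 and 30.8 nt.

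By the rule for named genes (no overlap, at least 100 tailed reads in every library, smallest unadjusted p), 8 genes were taken on each side. Tails of clp-1, a calpain protease gene (III: 7981104 to 7985965, plus strand), had 52.4 and 42.6 nt in control RNAi against 68.6 and 71.5 nt in panl-2 RNAi (22.62 ± 5.30 nt, limma adjusted p = 0.22). For the cuticle collagen gene col-142 the values were 37.3 and 40.9 against 56.3 and 53.9 nt. Isocitrate dehydrogenase subunit gene idha-1 had 34.9 and 28.4 against 45.9 and 42.2 nt. In each of these the lower panl-2 RNAi library lay at least several nt above the higher control.

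The list held a pair of proton pump genes, of which vha-13 had 34.1 and 31 against 43.4 and 40.3 nt, and vha-1 had 54 and 49.0 against 62.3 and 63.9 nt. The arginine methyltransferase gene prmt-1 stood at 33.9 and 27.6 against 48.4 and 39.8 nt, and the aspartyl protease gene asp-13 at 40.5 and 40.8 against 53.0 and 51.8 nt. Last came pmt-2, a gene of phosphocholine synthesis, at 36.8 and 36.6 against 49.5 and 43.1 nt. Over these 8 genes the changes ran from 9.26 to 22.62 nt (limma adjusted p from 0.22 to 0.33), and from 6.44 to 24.06 nt without panl-2 RNAi replicate 1.

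On the shorter side the differences were smaller. Tails of the ribosomal protein gene rpl-28 had 26.7 and 26.2 nt in control RNAi against 19.6 and 22.4 nt in panl-2 RNAi (-5.48 ± 1.83 nt, limma adjusted p = 0.33). The Piwi Argonaute gene prg-1 had 35.5 and 40.4 against 28.7 and 32.7 nt. Synaptobrevin gene snb-1 had 43.3 and 43.7 against 38.5 and 35.9 nt, and the complex I subunit gene nuo-6 had 27.0 and 28.0 against 24.7 and 17.7 nt. The remaining 4, tat-4 (a flippase gene), dab-1 (an endocytic adaptor gene), bir-2 and ndab-2, differed by -6.56 to -3.75 nt. Over the 8 genes limma's adjusted p was 0.33 to 0.58, so that none passed the test.

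**Figure D3:**
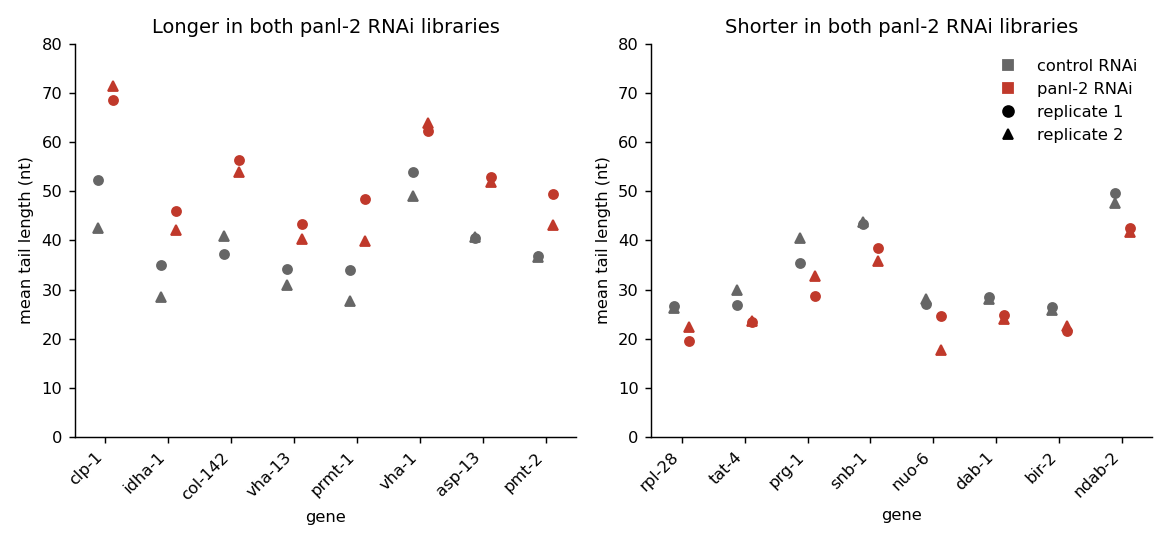
Mean tail length in nt in the 4 libraries for the 8 genes named on the longer side (left) and the 8 on the shorter side (right); grey is control RNAi, red is panl-2 RNAi, circles are replicate 1 and triangles replicate 2. The groups do not overlap for any gene, which the naming rule required, and the differences run from 9.26 to 22.62 nt on the left and from -7.23 to -3.75 nt on the right.

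Genes were then ordered by their tail length in the 3 gld-2 libraries of run 1, which took no part in the RNAi experiment, and divided into 4 groups of equal size (6510 genes). In the group with the shortest tails the library medians were 25.90 and 24.66 nt in control RNAi and 27.20 and 25.23 nt in panl-2 RNAi. In the group with the longest tails they were 43.19 and 41.91 nt against 46.30 and 44.89 nt. In that last group both panl-2 RNAi medians lay above both control medians, which they did not in the other 3 groups. This was not particular to panl-2 RNAi. The ccr-4 RNAi medians (46.92 and 44.17 nt) and the ccf-1 RNAi medians (46.16 and 45.35 nt) also lay above both controls there, and did so in the other 3 groups too. For parn-1 RNAi (46.71 and 42.65 nt) and caf-1 RNAi (45.04 and 41.67 nt) only replicate 1 did in the last group. The median change per gene, from the shortest to the longest group, was 0.89, 0.91, 1.25 and 2.80 nt, and 0.02, -0.14, 0.42 and 2.23 nt without panl-2 RNAi replicate 1. These are descriptions with no test; with each library centred on its own median they became -0.71, -0.69, -0.35 and 1.20 nt.

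**Figure D4:**
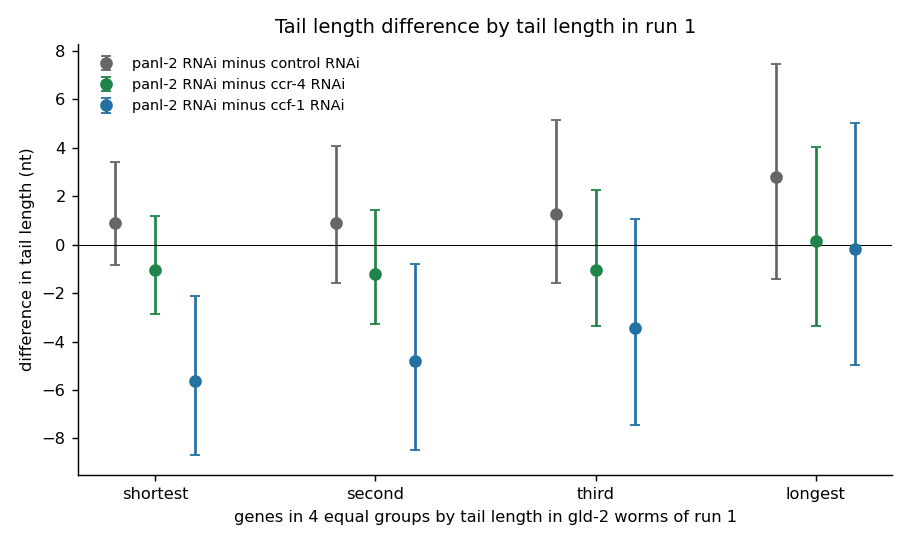
Difference in tail length between panl-2 RNAi and control, ccr-4 or ccf-1 RNAi in nt (points are medians over genes, bars run from the lower to the upper quartile) for genes in 4 groups by tail length in gld-2 worms of run 1. Against control RNAi the median is 0.89 nt in the shortest group and 2.80 nt in the longest, and against ccf-1 RNAi it goes from -5.61 to -0.18 nt.

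A list of tails that depend on GLD-2 came from run 1, where limma found 627 of 8141 tails shorter in 3 gld-2 libraries than in 3 libraries of N2, and 597 of these were tested here. Their median tail was 27.24 and 26.02 nt in control RNAi and 28.03 and 27.42 nt in panl-2 RNAi. None was called, 38 were longer and 0 shorter at an unadjusted p of 0.05 (9.23% and 1.50% of all genes tested), and the median change was 0.95 nt beside 1.28 nt over all genes. Taking only the 288 tested tails that had been shorter by at least 10 nt in run 1 gave a median change of 1.37 nt. Both medians changed sign, to -0.65 and -0.23 nt, once libraries were centred, and so did the median over all genes, to -0.32 nt. Centring shifts every gene of a library by the same amount, so these signs say nothing particular about the lists.

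No maternal or germline list had a member past the test against control RNAi. Over all genes 0 of 6525 passed, which fixed each list count at 0, and the median change was 1.28 nt. Of 27 oocyte and maternal genes tested, 0 were called for tail length, with a median change of 1.33 nt. The polarity gene mex-5, which sets up the front of the zygote, had 25.7 and 25.1 nt in control RNAi and 32.5 and 33.0 nt in panl-2 RNAi, higher in both (7.39 ± 2.71 nt, limma adjusted p = 0.36). Germ lineage gene pie-1 had 26.7 and 27.6 against 23.9 and 21.5 nt. Among 20 eggshell and egg activation genes (0 called, median 0.74 nt), egg-2, needed for fertilization, had 28.5 and 25.4 against 41.8 and 38.1 nt (13.02 ± 3.73 nt, limma adjusted p = 0.28). The chondroitin proteoglycan genes cpg-1 and cpg-2, which build the eggshell, overlapped between the groups, at 21.0 and 22.8 against 20.8 and 22.1 nt and at 18.7 and 19.5 against 19.0 and 20.7 nt.

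Nor did the lists of cell cycle, meiosis and RNA silencing genes, as 0 of 6525 genes passed (median change over all genes 1.28 nt). Of 43 polarity and early division genes 0 were called (median 1.84 nt), and the mitotic cyclin gene cyb-1 had 26.3 and 22.8 nt in control RNAi against 30.4 and 29.9 nt in panl-2 RNAi. In the meiotic list (31 tested, 0 called, median 1.56 nt) the crossover gene msh-5 had 53.4 and 34.7 against 72.5 and 63.2 nt. Of 39 RNA interference genes 0 were called (median 0.94 nt), and the Argonaute gene ppw-2 had 34.3 and 36.5 against 49.6 and 50.2 nt (14.53 ± 3.33 nt, limma adjusted p = 0.22). P granule genes (13 tested, 0 called, median 0.49 nt) included pgl-1, at 36.0 and 34.3 against 30.9 and 26.8 nt, and mip-1, at 43.5 and 37.9 against 55.3 and 51.0 nt.

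Somatic and housekeeping lists also had no member past the test, beside 0 of 6525 over all genes (median change 1.28 nt). The median changes were 1.93 nt for 38 intestinal genes, 0.96 nt for 36 muscle genes, 1.46 nt for 50 cuticle collagen genes, 0.52 nt for 78 ribosomal protein genes and 0.18 nt for 33 proteasome genes, with 0 called in each. For the yolk protein gene vit-6 the tails had 36.7 and 35.5 nt in control RNAi and 44.6 and 37 nt in panl-2 RNAi, and without replicate 1 the difference was 0.86 nt. The collagen gene col-81, with the smallest p of its list, stood at 26.6 and 24.5 against 36.2 and 38.9 nt (11.96 ± 2.24 nt, limma adjusted p = 0.13).

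Across single genes the share of reads with a tail was above control RNAi in most genes, with most of the difference in replicate 1. limma called 0 of 5203 genes on the log2 odds scale (smallest adjusted p 0.065), while 1387 (26.7%) had an unadjusted p under 0.05, 1382 of them higher. The median change in the log2 odds was 1.35. Without panl-2 RNAi replicate 1 limma called 28 genes, 21 higher and 7 lower, and without replicate 2 it called 3829, 3828 of them higher. Genes in which both panl-2 RNAi libraries exceeded both controls made up 41.9% of those tested.

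The genes named by the rule had to exceed the controls in both panl-2 RNAi libraries. Of the reads of clp-1, 81.4% and 79.8% carried a tail in control RNAi against 97.9% and 96.4% in panl-2 RNAi (log2 odds 3.08 ± 0.64, limma adjusted p = 0.074). For tiar-1, an RNA-binding protein gene of the TIA-1 family, the shares were 73.7% and 64.4% against 95.7% and 90.7%. Transcripts of asp-13 were tailed in 71.5% and 58.4% against 96.0% and 89.4% of reads. The triglyceride lipase gene atgl-1 (94.8% and 89.4% against 99.7% and 99.1%), the endosulfine gene ensa-1 (93.8% and 87.1% against 98.9% and 98.5%), maph-1.2, ttr-51 and nepr-1 completed the 8, whose limma adjusted p lay between 0.067 and 0.081. Without replicate 1 their changes in log2 odds were 1.82 to 3.01 (limma adjusted p from 0.094 to 0.21).

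Only 5 genes met the rule on the lower side. Among them were 3 ribosomal protein genes, while over the whole ribosomal protein list 72 of 78 tested genes had a change above 0 (median 1.17 in log2 odds, 0 called). The share of tailed reads of rps-24 was 15.4% and 17.6% in control RNAi and 4.42% and 9.38% in panl-2 RNAi. For rpl-19 it was 46.7% and 46.8% against 35.9% and 36.6%, and for rps-11 9.74% and 10.7% against 8.25% and 3.11%. The chaperone gene dnj-5 had 43.1% and 48.2% against 30.3% and 25.5%, and skr-1, a ubiquitin ligase adaptor gene, 73.9% and 76.1% against 73.7% and 68.9%. Their limma adjusted p lay between 0.28 and 0.68.

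For mRNA levels, too, no gene passed the test against control RNAi. edgeR called 0 of 9908 genes (smallest adjusted p 0.14), with 1582 genes (16.0%) at an unadjusted p under 0.05, 1023 higher and 559 lower in panl-2 RNAi. DESeq2 on the same libraries called 170, 127 higher and 43 lower. Leaving out panl-2 RNAi replicate 2 gave 190 calls in edgeR, and leaving out replicate 1 gave 2.

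On the higher side the rule named 8 genes. The Integrator subunit gene ints-7 (II: 11582784 to 11588323, plus strand) had 87.1 and 65.0 CPM in control RNAi against 397 and 253 CPM in panl-2 RNAi (log2 2.09 ± 0.37, edgeR adjusted p = 0.14). The TDP-43 gene tdp-1 had 61.5 and 60.3 against 160 and 126 CPM, and the cyclophilin gene cyn-4 had 41.9 and 42.5 against 95.9 and 85.0 CPM. Each panl-2 RNAi value was above both controls.

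The BTB domain gene btbd-10 had 53.0 and 47.2 CPM in control RNAi against 127 and 149 CPM in panl-2 RNAi, and the scramblase gene scrm-1 had 67.4 and 45.8 against 175 and 129 CPM. The others were serp-1.2, at 112 and 81.8 against 324 and 242 CPM, and maph-1.3, at 193 and 114 against 367 and 463 CPM. With panl-2 these are the 8 genes named on the higher side, and their log2 changes of 1.10 to 5.61 all had an edgeR adjusted p of 0.14. Without replicate 1 the changes were 0.88 to 6.35 (edgeR adjusted p from 1.0e-04 to 0.42); their sign was fixed by the naming rule.

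Among the 8 genes named on the lower side the largest difference was in prmt-5, the symmetric arginine methyltransferase gene, with 104 and 104 CPM in control RNAi and 12.9 and 26.5 CPM in panl-2 RNAi (log2 -2.44 ± 0.63, edgeR adjusted p = 0.16). The DAF-16 pathway gene dod-3 had 89.6 and 71.0 against 10.9 and 28.7 CPM. Maternal RNA-binding protein gene spn-4 had 186 and 213 against 109 and 78.8 CPM, and the nuclear Argonaute gene hrde-1 had 97.3 and 100 against 56.9 and 50.3 CPM. For mev-1, a succinate dehydrogenase subunit gene, the levels were 187 and 164 against 89.6 and 94.2 CPM, and for rad-23, a proteasome shuttle gene, 101 and 93.0 against 52.1 and 51.7 CPM. With pqn-65 and har-1 these 8 genes had edgeR adjusted p of 0.14 to 0.17 and log2 changes of -2.44 to -0.88, or of -2.11 to -1.03 without replicate 1.

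By gene group, 0 members of any of the 23 lists were called for level against control RNAi, as 0 of 9908 genes were. The list medians were -0.15 to 0.49 beside 0.04 (log2) over all genes. The poly(A)-binding and cap-binding list (10 tested, median -0.15) held opposite members. Its main cytoplasmic poly(A)-binding protein gene pab-1 had 2351 and 1325 CPM in control RNAi against 5659 and 3951 CPM in panl-2 RNAi (log2 1.39 ± 0.34, edgeR adjusted p = 0.16). Its relative pab-2 had 36.8 and 48.1 against 11.9 and 17.6 CPM (-1.54 ± 0.38, edgeR adjusted p = 0.16). Of 13 poly(A) polymerase genes (median -0.01), the terminal uridylyltransferase gene cid-1 had 143 and 86.5 against 265 and 276 CPM.

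Among 45 polarity and early division genes (median 0.22), cdk-1, the mitotic kinase gene, had 186 and 140 CPM in control RNAi against 390 and 412 CPM in panl-2 RNAi. The centriole gene sas-4 had 37.6 and 23.4 against 103 and 73.1 CPM. P granule genes (15 tested, median -0.14) included meg-1, at 16.1 and 27.1 against 4.37 and 5.41 CPM, and meg-4, at 14.6 and 11.7 against 4.37 and 2.71 CPM. In the eggshell list (20 tested, median 0.07) cpg-3 had 1267 and 1833 against 2741 and 3527 CPM, while the oocyte surface gene cbd-1 had 274 and 339 against 169 and 149 CPM.

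Muscle genes (37 tested, median 0.29) were highest in replicate 1: summed over the list they made 16853 and 13167 CPM in control RNAi and 36479 and 24101 CPM in panl-2 RNAi, and in both libraries the sum was above the controls. The actin gene act-4 had 1042 and 822 against 3165 and 2001 CPM. Ribosomal protein genes (78 tested, median -0.09) split the panl-2 RNAi pair, with 388819 and 370120 CPM in control RNAi against 247337 CPM in replicate 1 and 462794 CPM in replicate 2. Sperm genes (62 tested, median 0.07) did the same, at 24571 and 24857 CPM against 12960 and 26274 CPM. In caf-1 RNAi replicate 2 the ribosomal protein and sperm sums were likewise low, at 223355 and 13108 CPM. Yolk protein genes (5 tested, median 0.49) summed to 29464 and 28911 CPM against 26717 and 53993 CPM. For these 3 groups the panl-2 RNAi replicates lie on opposite sides of the controls, so each mean lies between its 2 libraries. The part of the muscle marker myo-2, high in replicate 1 only, in the muscle values was not tested.

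Set directly against ccf-1 RNAi, tails in panl-2 RNAi were shorter. limma called 571 of 7008 genes (8.15%), 522 shorter (7.45%) and 49 longer (0.699%), with a median difference of -3.75 nt. Of the 605 tested tails that were GLD-2-dependent in run 1, 187 were shorter in panl-2 RNAi than in ccf-1 RNAi and 0 longer, with a median of -7.77 nt. The comparisons with control RNAi and with ccf-1 RNAi share the panl-2 RNAi libraries. Leaving out 1 library brought the number of calls to 0 (for either panl-2 RNAi library or ccf-1 RNAi replicate 2) or 194 (ccf-1 RNAi replicate 1), centring each library on its median gave 2, and the 4 libraries alone gave 0.

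Maternal genes were among the 522 shorter tails. Tails of nos-2, a germ cell Nanos gene, had 20.4 and 20.2 nt in panl-2 RNAi against 30.6 and 32.0 nt in ccf-1 RNAi, and 21.5 and 22.7 nt in control RNAi (-11.01 ± 1.63 nt against ccf-1 RNAi, limma adjusted p = 0.029). For pie-1 the ccf-1 RNAi values were 33.9 and 38.9 nt (-13.68 ± 2.15 nt, limma adjusted p = 0.029), and for the Pumilio family gene puf-3 the tails had 20.3 and 24.9 nt in panl-2 RNAi, 33.5 and 36.8 nt in ccf-1 RNAi, and 21.2 and 22.6 nt in control RNAi. Beside 7.45% called shorter over all genes, 9 of 29 oocyte and maternal genes and 6 of 20 eggshell genes were shorter. So were 8 of 43 polarity and early division genes, 5 of 33 proteasome genes and 3 of 14 P granule genes. The calls were fewer in other lists, at 0 of 32 meiotic prophase genes, 1 of 40 RNA interference genes and 1 of 78 ribosomal protein genes. Fewer calls did not always go with a smaller difference. The median differences of these lists were -5.81, -5.34 and -3.62 nt, beside -6.35 nt for oocyte and maternal genes and -3.75 nt over all genes. In all these lists 0 were longer. The eggshell gene cpg-2 had 19.0 and 20.7 nt against 26.6 and 29.3 nt in ccf-1 RNAi, the centriole gene sas-6 27.0 and 25.6 against 37.7 and 35.4 nt, and the proteasome ATPase gene rpt-3 34.8 and 31.6 against 49.4 and 53.9 nt.

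Beside the 8.15% called over all genes, the somatic lists had these counts against ccf-1 RNAi: 0 of 42 intestinal genes (median -0.57 nt), 0 of 51 cuticle collagen genes (0.19 nt) and 2 of 37 muscle genes (-0.43 nt) were called. Both muscle calls were longer in panl-2 RNAi; of these the troponin I gene unc-27 had 51.7 and 48.6 nt against 34.8 and 29.9 nt. Other tails that were longer in panl-2 RNAi than in ccf-1 RNAi were those of rnp-1 (24.84 ± 3.43 nt, limma adjusted p = 0.029) and clp-1 (22.21 ± 5.41 nt, limma adjusted p = 0.039). By the groups of run 1 tail length, the median difference was -5.61, -4.79, -3.44 and -0.18 nt from the shortest to the longest group.

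**Figure D5:**
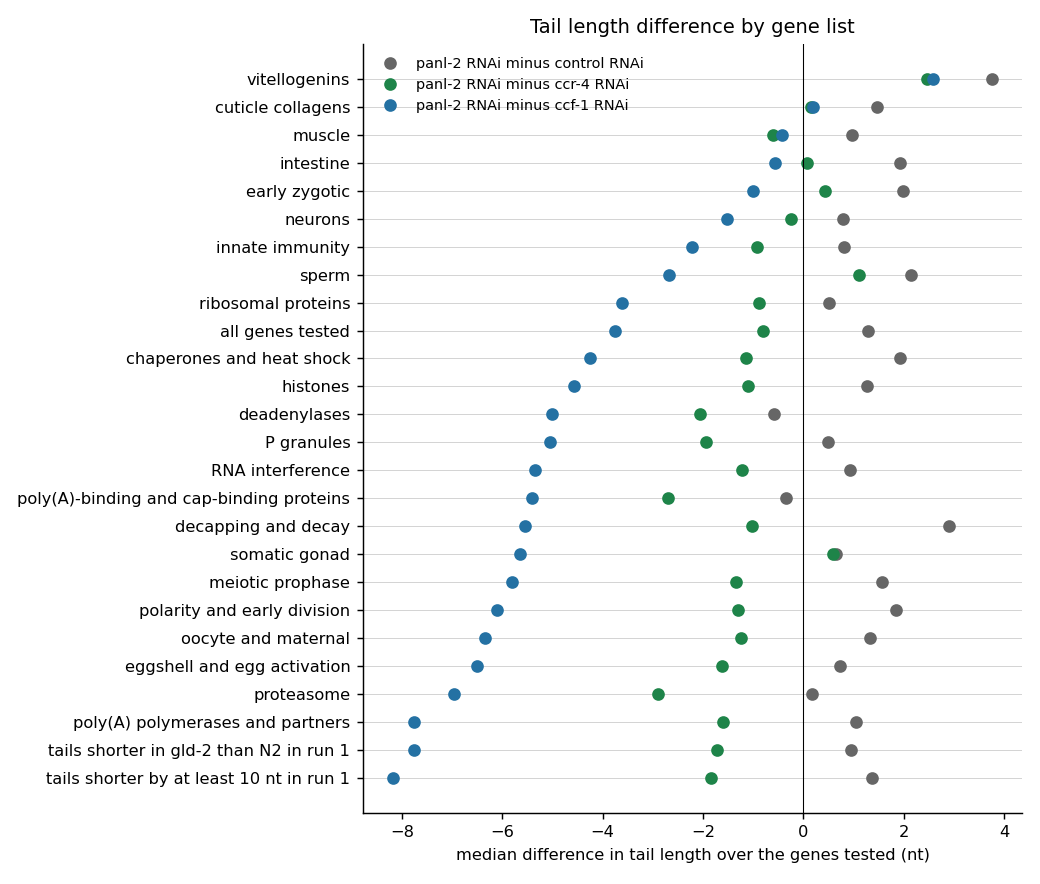
Median difference in tail length in nt over the tested genes of each list, for panl-2 RNAi minus control, ccr-4 or ccf-1 RNAi; each point is 1 list in 1 comparison. Against control RNAi the list medians lie between -0.59 and 3.77 nt (1.28 nt over all genes), while against ccf-1 RNAi they lie between -8.18 and 2.58 nt (-3.75 nt over all genes).

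Levels also differed from ccf-1 RNAi: edgeR called 338 of 9908 genes (3.41%), 231 higher (2.33%) and 107 lower (1.08%) in panl-2 RNAi. The ccf-1 gene was among them. Its level was 73.8 and 66.8 CPM in ccf-1 RNAi, 1.06 ± 0.22 lower on the log2 scale than in panl-2 RNAi (edgeR adjusted p = 0.034), and that of ntl-9 was 107 and 73.7 CPM (1.56 ± 0.31 lower, edgeR adjusted p = 0.031). Reads of pab-1 were at 1339 and 1004 CPM in ccf-1 RNAi, so that panl-2 RNAi was higher by 2.04 ± 0.35 (log2, edgeR adjusted p = 0.026).

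Of 30 oocyte and maternal genes, 7 were called lower in panl-2 RNAi than in ccf-1 RNAi, 0 higher and 23 not called (1.08% of all genes were called lower), and 8 of the 30 had a change above 0. The Pumilio gene fbf-1 had 5.29 and 5.14 CPM in panl-2 RNAi and 18.7 and 19.6 CPM in ccf-1 RNAi, and 5.66 and 6.08 CPM in control RNAi (-1.87 ± 0.30 against ccf-1 RNAi, edgeR adjusted p = 0.026). For pos-1, a zinc finger regulator of the early embryo, the levels were 110 and 117 against 240 and 296 CPM (-1.24 ± 0.22, edgeR adjusted p = 0.028). The levels of hrde-1 were 167 and 220 CPM in ccf-1 RNAi (-1.85 ± 0.23, edgeR adjusted p = 0.016). With either ccf-1 RNAi library left out, or with the 4 libraries fitted alone, edgeR made 0 calls in place of 338, without panl-2 RNAi replicate 1 it made 2, and without replicate 2 it made 833.

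Against ccr-4 RNAi no gene was called, 0 of 9908 for level in edgeR (1145, or 11.6%, at an unadjusted p under 0.05; 15 by DESeq2) and 0 of 7292 for tail length in limma (395, or 5.42%, at an unadjusted p under 0.05). The median tail difference between panl-2 RNAi and ccr-4 RNAi was -1.03, -1.22, -1.03 and 0.16 nt over the 4 groups of run 1 tail length. Over the GLD-2-dependent tails, library medians were 28.03 and 27.42 nt in panl-2 RNAi, 30.57 and 28.75 nt in ccr-4 RNAi, and 34.20 and 37.44 nt in ccf-1 RNAi.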

How the data were processed

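The authors deposited 3 tables with 31753 gene rows (3657 merge several genes): raw counts, counts of poly(A)-tailed reads, and their mean tail length in nt. Bowtie2 2.2.4, Bowtie and build ce10 are named in the submitters' processing notes; counting and tail calling are not described in the labels or files. Gene names were updated through RefSeq accessions (29111 rows matched).

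The 12 RNAi libraries of run 2 shared each fit. Counts were tested with edgeR 4.0.16 (TMM, filterByExpr, robust quasi-likelihood). Tail lengths were tested with limma 3.58.1 (trend, robust), on values from at least 5 tailed reads and genes with a mean of at least 20; tailed shares were tested with limma as log2 odds (pseudocount 0.5, at least 20 counts per library). Calls had a Benjamini-Hochberg adjusted p under 0.05 over all genes tested. DESeq2 1.42.0 was an alternative. CPM values are counts scaled to the TMM library size, except for the marker myo-2 (plain total). The tests were checked on simulated data. PCR duplicates are not identified, so intervals cover counting error only.

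Named genes were the RNAi targets and deadenylase list; per measure and direction the 8 largest called changes without overlap, filled up by smallest p (mean of at least 50 CPM, or 100 tailed reads per library) where too few passed; and up to 4 members per list by smallest p. Members and lists were chosen with earlier results of these data known.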

Additional observations from a re-analysis of the deposited data

How the results depend on the processing

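With 2 libraries a group, few calls are stable. Against control RNAi, the count of genes called for level (0) became 320 with no filter on low counts and 170 with DESeq2, and ranged from 0 to 190 with 1 library left out. The count for tail length (0) became 1 with centred tail lengths, 1 with a minimum mean of 5 or of 50 tailed reads and 16 with weights by tailed reads (0 to 11 with 1 library left out). For tailed share (0) it became 4 with centred log2 odds (0 to 3829 with 1 library left out). Against ccf-1 RNAi, calls for level (338) became 0 with the 4 libraries alone, 711 with DESeq2, 905 with no filter and 580 with tailed reads only (0 to 833 with 1 library left out). Calls for tail length (571) became 0 with the 4 libraries alone, 2 when centred, 222 on the log2 scale, 0 and 950 with a minimum mean of 5 and of 50 tailed reads, and 1195 when weighted (0 to 194 with 1 library left out). Against ccr-4 RNAi, calls for level (0) became 15 with DESeq2 and 154 with no filter (0 to 244 with 1 library left out), and for tail length 2 when weighted (0 to 0). In each case the cause was not tested.

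Centring gave medians of -0.65 nt for GLD-2-dependent tails, -0.23 nt for those shortened by at least 10 nt, and -0.71, -0.69, -0.35 and 1.20 nt for the 4 groups of run 1 tail length. Over all genes tested the centred median was -0.32 nt. With 1 library left out, the medians of the 2 lists and the 4 groups ranged from 0.80 to 1.65, from 1.13 to 2.24, from 0.02 to 1.49, from -0.14 to 1.81, from 0.42 to 2.22 and from 2.16 to 3.65 nt. The difference in library median tail ranged from 0.56 to 2.64 nt and that in tailed share from -0.35 to 32.22 points. The sign turned for ccr-4 level (from -1.29 to 1.38 on the log2 scale with 1 library left out, 0.59 without panl-2 RNAi replicate 1), cpg-1 tails (from -1.31 to 0.50 nt with 1 library left out, 0.27 nt without panl-2 RNAi replicate 1) and cpg-2 tails (-0.86 nt centred, from -0.09 to 1.57 nt with 1 library left out).

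The labels tie replicate numbers to no shared culture, batch or day, and the rule for pairing (every correlation above 0.1) was not met: deviations of same-numbered libraries correlated above 0.1 in 12 of 15 pairs of groups for level (-0.147 to 0.392) and in 1 of 15 for tail length (-0.0233 to 0.125). With a replicate block the calls against control and ccr-4 RNAi were 0 for each measure tested; against ccf-1 RNAi they were 726 for level and 703 for tail length.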
